A study of Homo sapiens with 11 samples.

Results

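The 9 genes SQLE, LSS, CYP51A1, MSMO1, NSDHL, HSD17B7, EBP, SC5D and DHCR7 encode enzymes that turn squalene into cholesterol. They were taken by symbol, in pathway order, from 33080 genes in the deposited tables, 17626 of them with at least 1 read in at least 1 library, and all 9 were found. RNA sequencing was done on 769-P, a human clear-cell renal carcinoma cell line, in 11 libraries. The groups were si1, cells given a first siRNA against AKR1A1 (n = 3), si2, cells given a second siRNA against it (n = 4), and siSCR, cells given a control siRNA (n = 4). AKR1A1 encodes an aldo-keto reductase that reduces aldehydes to alcohols. All groups were transfected with RNAiMAX for 48 h, at a labelled siRNA concentration of 20 µM, and no untransfected cells were compared. The labels give the genotype of the siRNA groups as AKR1A1-/- and the series title speaks of a knockout, while the samples were transfected with siRNA and AKR1A1 reads remained, as given below. The line comes from 1 tumour, and the labels do not say whether the libraries of a group came from separate cultures, so every p-value measures the spread between these libraries, which may be technical.

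Cholesterol is built in the endoplasmic reticulum. SQLE oxidises squalene, LSS closes the epoxide into lanosterol, and CYP51A1 removes the methyl group at carbon 14. MSMO1, NSDHL and HSD17B7 act in turn to take off the methyl groups at carbon 4, EBP moves a double bond, SC5D adds one, and DHCR7 reduces one to give cholesterol. SREBP transcription factors, which are cut and released when sterol in the membrane is low, are known to act on these genes, and NF-Y at CCAAT boxes and Sp1 at GC boxes are known partners of SREBP on sterol genes.

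Promoter windows, running from 250 bases before to 50 after a transcription start, were available from RefSeq (GRCh38.p14) for 8 of the 9 genes, SQLE being the other one. The 8 genes had 10 windows. A gene counted if any of its windows matched, while the shares over all windows are of single windows. The letters CCAAT, on either strand, were found in the windows of 7 of those 8 genes, against 34.6% of all 35116 windows. MSMO1 held 4 copies, EBP 3 and NSDHL 5, of which 1 pair overlaps on opposite strands, against 3.26% of all windows with at least 3. The GC box GGGCGG, on either strand, was found in 7 of 8 genes, against 45% of all windows. LSS held 7 copies and 1 of the DHCR7 windows 4, against 15.8% of all windows with at least 3. The window of the more upstream DHCR7 start held 0 CCAAT and 0 GC boxes. The sterol regulatory element letters TCACNCCAC were found on either strand in 0 of 8 genes, against 1.13% of all windows, which says only that these letters are not in these windows. Matches of different motifs overlapped in 0 cases in these windows. A match is a description and not a site. The 200 bases before the start are shown for MSMO1 and DHCR7, which rose with both siRNAs. They are also shown for LSS, which was separated from siSCR without passing the adjusted threshold in the main fits. NSDHL and EBP, which were not separated from siSCR, are shown as well. Sequences run 5′ to 3′ on the strand of the gene, and capitals mark CCAAT or its reverse complement; copies beyond this stretch are not shown. They lie at chr4:165327469-165327668 (plus strand) for MSMO1, chr11:71448394-71448593 (minus strand, before the more downstream of 2 starts) for DHCR7, chr21:46228775-46228974 (minus strand) for LSS, chrX:152830863-152831062 (plus strand) for NSDHL and chrX:48521608-48521807 (plus strand) for EBP.
MSMO1: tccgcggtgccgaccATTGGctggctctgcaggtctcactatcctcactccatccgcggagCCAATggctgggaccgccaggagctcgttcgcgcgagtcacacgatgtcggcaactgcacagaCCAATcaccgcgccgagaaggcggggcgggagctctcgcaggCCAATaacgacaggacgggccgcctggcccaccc
DHCR7: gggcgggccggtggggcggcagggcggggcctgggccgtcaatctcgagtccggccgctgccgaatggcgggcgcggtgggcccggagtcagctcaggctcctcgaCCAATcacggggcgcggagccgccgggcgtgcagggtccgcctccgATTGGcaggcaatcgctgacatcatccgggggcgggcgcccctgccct
LSS: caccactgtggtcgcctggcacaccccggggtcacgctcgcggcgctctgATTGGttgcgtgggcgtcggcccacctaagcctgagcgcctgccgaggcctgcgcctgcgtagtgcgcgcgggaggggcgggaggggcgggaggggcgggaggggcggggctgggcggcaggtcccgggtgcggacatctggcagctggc
NSDHL: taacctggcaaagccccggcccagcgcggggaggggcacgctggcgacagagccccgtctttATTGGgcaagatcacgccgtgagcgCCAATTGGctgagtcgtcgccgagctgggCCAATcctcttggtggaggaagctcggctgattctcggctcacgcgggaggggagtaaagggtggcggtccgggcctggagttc
EBP: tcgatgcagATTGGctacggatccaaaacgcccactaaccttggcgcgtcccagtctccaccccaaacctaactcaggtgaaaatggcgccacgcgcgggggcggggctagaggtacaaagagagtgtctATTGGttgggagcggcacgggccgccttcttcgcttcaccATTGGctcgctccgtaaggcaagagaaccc

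Values are normalized counts, reads per gene on the authors' common scale, and differences are on the scale log2(normalized count + 1). The target AKR1A1 (GRCh38, chromosome 1, 45550543 to 45570049) had 81.7, 23.6 and 45.1 in si1 and 56.6, 32.1, 48.3 and 46.1 in si2, against 390, 256, 200 and 242 in siSCR. Every siRNA library was below every siSCR library. AKR1A1 fell by 2.54 on the log2 scale in si1 (SE 0.42, limma adjusted p = 0.0357), and it fell by 2.53 in si2 (SE 0.24, limma adjusted p = 0.00218). The call in si2 held without each library in turn; in si1 it held without siSCR 1 and was lost without each of the other 6 libraries, at log2 differences of −2.98 to −2.10.

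Depth was 2108546 to 5939514 reads on genes per library. The share of mitochondrial reads was 6.57 to 11.1% in si1 and 4.59 to 5.12% in si2, against 3.46 to 12.1% in siSCR. The mean log2 level of 15 S phase genes, centred over all libraries, was −1.23 to −0.47 in si1 and 0.07 to 0.13 in si2, against −0.46 to 0.77 in siSCR, and that of 15 mitosis genes was −1.84 to −0.34 in si1 and −0.00 to 0.07 in si2, against −0.78 to 1.08 in siSCR. The library siSCR 1 stood apart from the other siSCR libraries: it held the 12.1%, against 3.46 to 4.46%, and the −0.46 and −0.78, against 0.75 to 0.77 and 1.02 to 1.08. With the mitochondrial share as a covariate, SQLE, MSMO1 and DHCR7 were called higher in si1 at log2 differences of 1.57, 1.65 and 1.69 (limma adjusted p = 0.0482, 0.0338 and 0.0338) and in si2 at 1.61, 1.67 and 1.23 (limma adjusted p = 0.00151, 0.000742 and 0.0279). With this covariate LSS was called higher in si2 too, where 1343 of 10249 genes were called, and was not called in si1. The part of the cell cycle genes in the results below was not tested. Of the markers listed for other cells, 5 of 5 for endothelium were at 0 in every library, and 0 of 4 for leukocytes and 1 of 5 for fibroblasts (COL1A1) reached a mean normalized count of 10, with CD3E and LUM at 0 in every library. Summed over each list, leukocyte markers came to 0 to 1.76 in si1, 0 to 2.65 in si2 and 1.02 to 3.92 in siSCR, and fibroblast markers to 12.3 to 30.5 in si1, 38.9 to 61.0 in si2 and 25.5 to 52.3 in siSCR. The 5 renal epithelial markers, PAX8 and PAX2 among them, were all detected, summing to 2251 to 2506 in si1, 2408 to 2760 in si2 and 2545 to 2890 in siSCR. Of the 5 markers listed for clear-cell renal carcinoma, 3 reached a mean normalized count of 10, VIM (8984), VEGFA (42.1) and EGLN3 (13.2). NDUFA4L2 averaged 0.0798 and CA9 was at 0 in every library. The 5 summed to 6532 to 10649 in si1 and 8964 to 10106 in si2, against 8434 to 9739 in siSCR. Nearly all of this sum was VIM, so it says little about the other 4.

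The enzymes of the pathway fell into a set that rose and a set not shown to change. SQLE, MSMO1 and DHCR7 were called higher with both siRNAs, and NSDHL, EBP, HSD17B7 and SC5D overlapped siSCR. LSS was above siSCR in every library of both siRNAs but missed the adjusted threshold in the main fits, and passed it in some other settings. With si1, 3 of the 8 tested enzymes were called higher and 0 lower, where 0.789% of all 10517 tested genes were called higher, at a limma adjusted p under 0.05 over all genes. With si2, again 3 of 8 were called higher and 0 lower, where 1.93% of all 10249 tested genes were called higher. The median log2 difference of the tested enzymes was 0.92 in si1, beside −0.03 over all genes, and 0.87 in si2, beside −0.01 over all genes. With the replicate number as a block, 0 of the 8 passed in si1. In that fit siSCR 4, which has no si1 library of its number, did not add to the difference. These counts and medians cover the 8 enzymes that reached 10 normalized counts in enough libraries to fill the smaller group; CYP51A1 did not. The siRNAs were set against the same 4 siSCR libraries, so their results are not independent of each other. In these bulk libraries, fewer cells of a kind and less RNA per cell cannot be told apart.

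**Figure D1:**
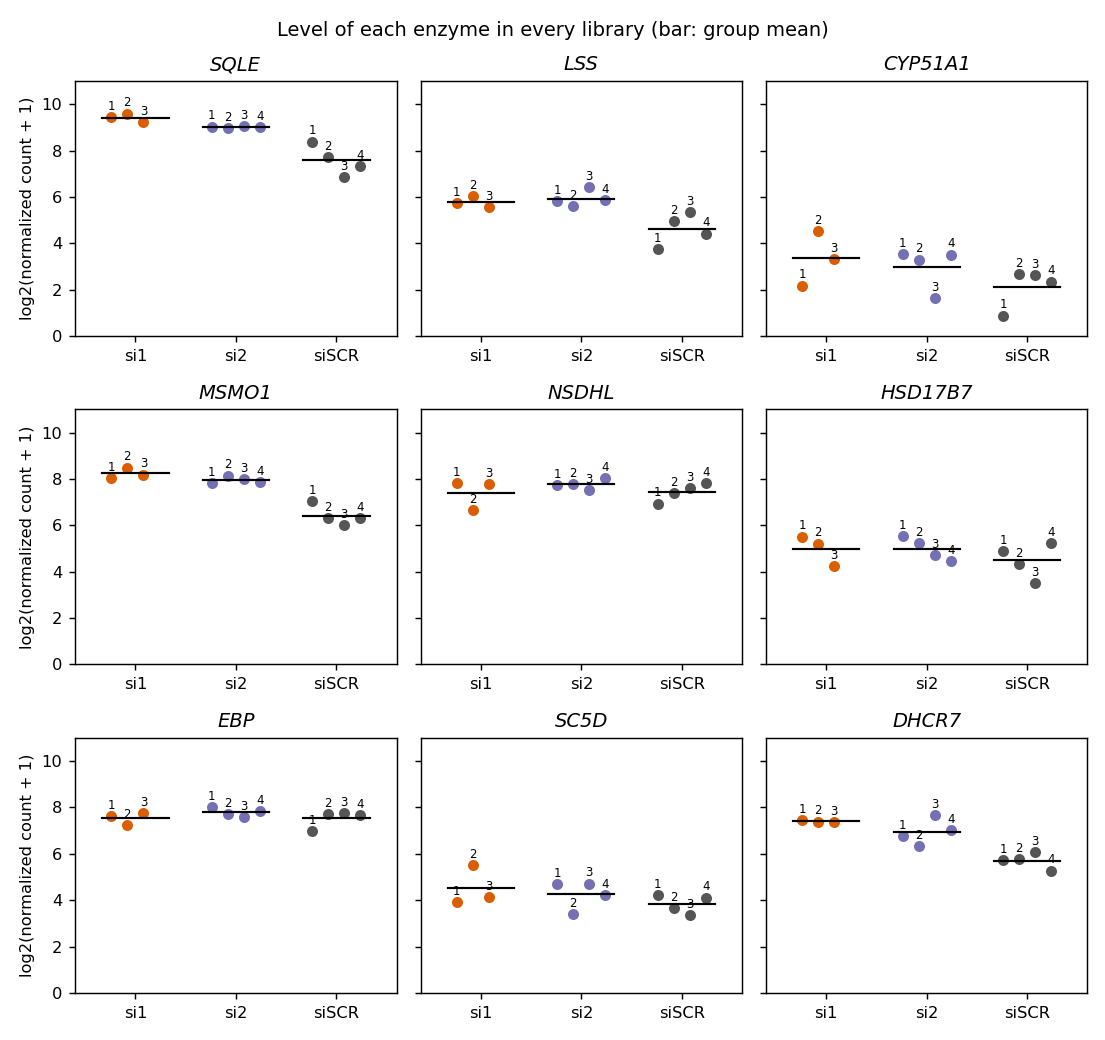
Level of each of the 9 enzymes as log2(normalized count + 1), in pathway order, in every library of si1, si2 and siSCR. Points are libraries with their replicate number, bars are group means. SQLE, LSS, MSMO1 and DHCR7 lie above siSCR in all siRNA libraries, and the other 5 overlap it.

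SQLE (chromosome 8, 124998497 to 125022283), squalene epoxidase, is a rate-limiting enzyme of the pathway. Its normalized count was 688, 770 and 601 in si1 and 522, 502, 525 and 514 in si2, against 334, 212, 114 and 161 in siSCR. The lowest siRNA library was above the highest siSCR library, siSCR 1, and the si2 libraries lay closer together than those of either other group. SQLE rose by a log2 difference of 1.84 in si1 (SE 0.35, 95% interval 1.03 to 2.66, limma adjusted p = 0.0491) and of 1.44 in si2 (SE 0.28, 95% interval 0.80 to 2.07, limma adjusted p = 0.0276). Without siSCR 1 the differences were 2.11 in si1 (limma adjusted p = 0.0104) and 1.71 in si2 (limma adjusted p = 0.00223).

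MSMO1 (chromosome 4, 165327623 to 165343160), the C4-methylsterol oxidase, was the enzyme whose call was kept most often. It had 265, 358 and 292 in si1 and 227, 282, 256 and 232 in si2, against 131, 78.0, 64.1 and 78.4 in siSCR. Every siRNA library was above every siSCR library, again with siSCR 1 the highest of its group. MSMO1 rose by a log2 difference of 1.82 in si1 (SE 0.27, limma adjusted p = 0.0318) and of 1.54 in si2 (SE 0.22, limma adjusted p = 0.00804). In si2 it passed the adjusted threshold without each single library in turn and under each of 11 other settings, the limma adjusted p running from 0.000742 to 0.0417.

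DHCR7 (chromosome 11, 71428193 to 71452868), the 7-dehydrocholesterol reductase of the last step, had 177, 167 and 164 in si1 and 109, 80.3, 203 and 131 in si2, against 52.0, 53.4, 66.7 and 37.7 in siSCR. The groups did not overlap, the si1 libraries lay close together, and the si2 libraries were spread, with si2 2 nearest to siSCR. DHCR7 rose by a log2 difference of 1.70 in si1 (SE 0.22, limma adjusted p = 0.0318) and of 1.25 in si2 (SE 0.28, limma adjusted p = 0.0443). In siSCR 1 it was not set apart from the other siSCR libraries, and without that library the differences were 1.70 and 1.25, at limma adjusted p = 0.0124 and 0.0313.

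LSS (chromosome 21, 46188141 to 46228824), lanosterol synthase, had 52.7, 63.8 and 46.6 in si1 and 54.8, 48.2, 84.0 and 57.0 in si2, against 12.6, 29.9, 39.2 and 20.4 in siSCR. All 7 siRNA libraries were above all 4 siSCR libraries, with 15 to 30 reads behind each siSCR value. The log2 difference was 1.16 in si1 (SE 0.37, limma adjusted p = 0.120) and 1.31 in si2 (SE 0.32, limma adjusted p = 0.0579), neither past the threshold. Of 10 other settings that tested LSS with no library left out, it passed in 6 in si2 (limma adjusted p = 0.0142 to 0.150 over the 10). In si1 it passed in 1 of 10, the fit of all 11 libraries (limma adjusted p = 0.0480). Without siSCR 1, where LSS was lowest, the difference was 0.88 in si1 (limma adjusted p = 0.0784) and 1.02 in si2, which then passed (limma adjusted p = 0.0316); without siSCR 3 the si2 difference passed too, at 1.55. In the annotation used here, 7.88% of the exon bases of LSS are shared with antisense genes, and whether the counting used strand is not given in the sources used here.

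SQLE, LSS, MSMO1 and DHCR7 were thus the 4 of 8 tested enzymes with every siRNA library above every siSCR library, in si1, where 10.8% of all tested genes were, and in si2, where 7.09% were. An exact permutation test of each of these 4 gave a two-sided p of 0.0571 in si1 and 0.0286 in si2, the smallest that the 35 and 70 arrangements of the libraries allow, so the si1 design could not reach 0.05 in this test. Ranked from the highest log2 difference, SQLE was 74th, MSMO1 76th, DHCR7 101st and LSS 371st of 10517 genes in si1, and MSMO1 48th, SQLE 64th, LSS 93rd and DHCR7 113th of 10249 in si2.

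**Figure D2:**
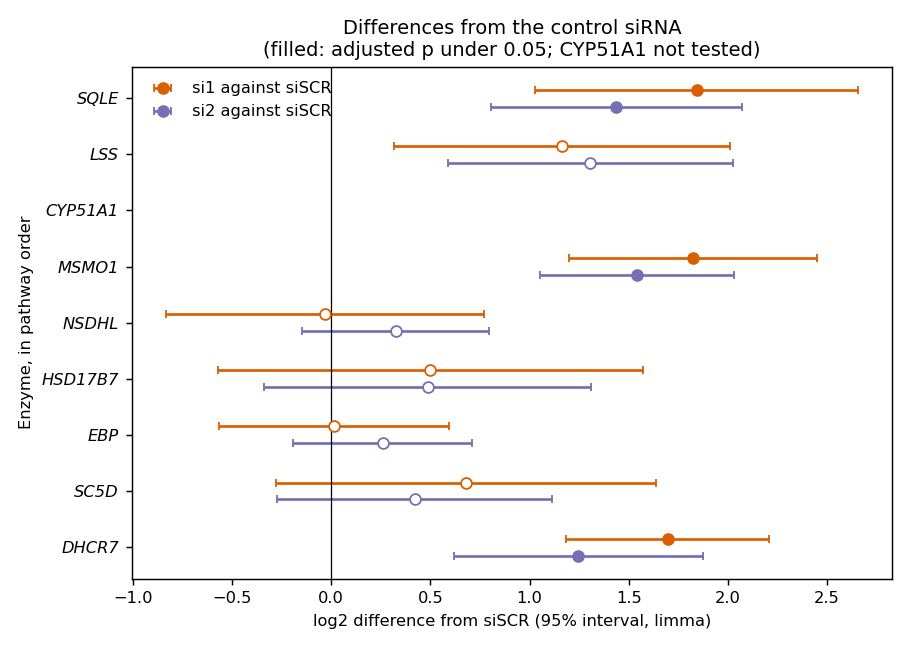
Log2 difference from siSCR of each enzyme, in pathway order from the top, for si1 and si2, with the 95% interval from limma. Filled points passed an adjusted p of 0.05, as SQLE, MSMO1 and DHCR7 did with both siRNAs; the intervals of NSDHL, HSD17B7, EBP and SC5D include 0, and CYP51A1 was not tested.

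NSDHL (chromosome X, 152830967 to 152869729), a sterol dehydrogenase that follows MSMO1 in the removal of the methyl groups, had 226, 99.9 and 216 in si1 and 213, 217, 185 and 262 in si2, against 122, 168, 196 and 225 in siSCR. The groups overlapped, and si1 2 and siSCR 1 were the lowest libraries. The log2 difference was −0.03 in si1 (95% interval −0.83 to 0.77, limma adjusted p = 0.968) and 0.33 in si2 (95% interval −0.15 to 0.80, limma adjusted p = 0.433).

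EBP (chromosome X, 48521158 to 48528716), the isomerase that shifts the double bond of the sterol ring, had 197, 151 and 215 in si1 and 256, 210, 193 and 227 in si2, against 126, 210, 213 and 202 in siSCR. The lowest libraries were again siSCR 1 and si1 2. The log2 difference was 0.01 in si1 (95% interval −0.57 to 0.60, limma adjusted p = 0.980) and 0.26 in si2 (95% interval −0.19 to 0.71, limma adjusted p = 0.523). The intervals for EBP and NSDHL ended below the log2 differences of MSMO1, 1.82 in si1 and 1.54 in si2.

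HSD17B7 (chromosome 1, 162790702 to 162812817), the 3-ketosteroid reductase that ends each round of methyl removal, had 44.8, 36.1 and 18.0 in si1 and 45.1, 36.9, 25.2 and 20.7 in si2, against 28.5, 19.2, 10.5 and 36.7 in siSCR. SC5D (chromosome 11, 121292453 to 121308694), the sterol C5-desaturase, had 14.1, 44.4 and 16.5 in si1 and 24.8, 9.63, 25.2 and 17.6 in si2, against 17.6, 11.8, 9.16 and 16.3 in siSCR. The groups overlapped for both genes, and single libraries held as few as 8 reads of HSD17B7 and 7 of SC5D. The log2 difference of HSD17B7 was 0.50 in si1 (95% interval −0.57 to 1.57, limma adjusted p = 0.526) and 0.49 in si2 (95% interval −0.34 to 1.31, limma adjusted p = 0.511). That of SC5D was 0.68 in si1 (95% interval −0.28 to 1.64, limma adjusted p = 0.341) and 0.42 in si2 (95% interval −0.27 to 1.11, limma adjusted p = 0.499). HSD17B7 has 2 annotated pseudogenes, HSD17B7P1 and HSD17B7P2, that are not among the rows used here, and reads shared with them could be lost or misplaced in the counting.

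CYP51A1 (chromosome 7, 92112151 to 92134803), the lanosterol demethylase, had 3.51, 22.2 and 9.02 in si1 and 10.6, 8.83, 2.10 and 10.4 in si2, against 0.84, 5.34, 5.23 and 4.07 in siSCR. These values stand for 1 to 20 reads per library and the groups overlapped. The gene did not reach the minimum of 10 normalized counts in enough libraries, so it was left untested against siSCR. With no minimum on counts, the log2 difference was 1.21 in si1 (SE 0.65, limma adjusted p = 0.406) and 0.86 in si2 (SE 0.53, limma adjusted p = 0.546). In the annotation used here, 83.2% of its exon bases are shared with other genes, 79.4% with the same-strand gene AC000120.2, and reads on shared bases may not be counted for either gene; the measured level of CYP51A1 is therefore uncertain, and its pseudogenes CYP51A1P1, CYP51A1P2 and CYP51A1P3 add to that.

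Per kilobase of exon, the order of the enzymes differed between the groups. In si1, SQLE came first, at 159 ± 19.6 normalized counts per kilobase (SD, n = 3), before MSMO1 (105 ± 16.5), NSDHL (90.5 ± 35.1) and EBP (77.9 ± 13.6). In si2, SQLE stood at 120 ± 2.34, NSDHL at 110 ± 15.9, EBP at 91.9 ± 11.0 and MSMO1 at 86.2 ± 8.68 (SD, n = 4). In siSCR, NSDHL (89.0 ± 22.1, SD, n = 4) and EBP (78.0 ± 17.2) stood above SQLE (47.6 ± 22.0) and MSMO1 (30.4 ± 10.2). Among these 4, neighbours in the order overlapped in their library values in every group, except SQLE and MSMO1 in si1. DHCR7 followed without overlap, at 40.6 ± 1.61 in si1, 31.4 ± 12.6 in si2 and 12.6 ± 2.85 in siSCR. LSS, HSD17B7, SC5D and CYP51A1 were below 10 per kilobase on average in every group, with LSS at 7.51 ± 1.21 in si1, 8.43 ± 2.18 in si2 and 3.53 ± 1.60 in siSCR.

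Summed over the 9 enzymes, the normalized count was 1667, 1712 and 1578 in si1 (mean 1652 ± 68.4, SD, n = 3) and 1462, 1395, 1499 and 1471 in si2 (mean 1456 ± 44.0, SD, n = 4), against 824, 787, 718 and 781 in siSCR (mean 778 ± 44.1, SD, n = 4). The sums of the 3 groups did not overlap; no test was run on the sum. SQLE made up 38.1 to 45.0% of it in si1 and 35.0 to 36.0% in si2, against 15.8 to 40.5% in siSCR. The highest of these siSCR shares, 40.5%, was that of siSCR 1, and the other 3 siSCR libraries held 15.8 to 26.9%. The mean share of NSDHL was 11.0% in si1 and 15.1% in si2, against 23.1% in siSCR, and that of EBP was 11.4% in si1 and 15.2% in si2, against 24.4% in siSCR.

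**Figure D3:**
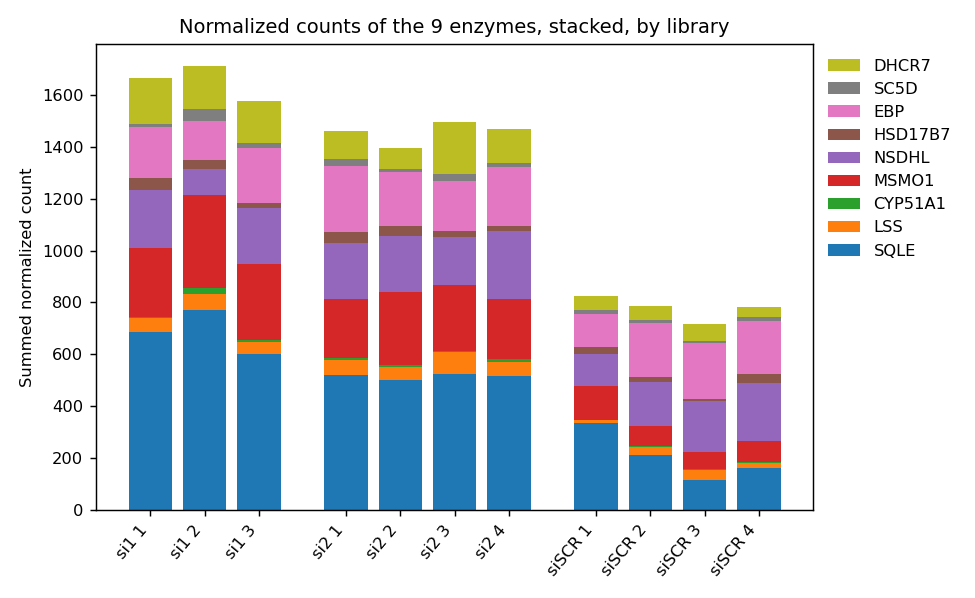
Normalized counts of the 9 enzymes stacked for each library of si1, si2 and siSCR, on a linear axis from 0. The si1 sums lie between 1578 and 1712, the si2 sums between 1395 and 1499 and the siSCR sums between 718 and 824, and siSCR 1 has the largest SQLE segment of its group.

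Within groups, the enzymes did not move as one block. After each group's mean was taken off, Pearson's r over the 11 libraries had a median of −0.14 over the 36 pairs of enzymes and ran from −0.91 (MSMO1 with EBP) to 0.86 (SQLE with MSMO1). The extremes leaned on siSCR 1 and si1 2, in which SQLE and MSMO1 were the highest and NSDHL and EBP the lowest of their group. Over the 9 other libraries, r was −0.48 for MSMO1 with EBP and 0.48 for SQLE with MSMO1. These are descriptions, over libraries that share their scaling.

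Between the siRNAs, si2 against si1, 0 of the 9 enzymes were called in either direction, where 6.74% of all 10448 tested genes were. An unadjusted limma p under 0.05 was held by 2654 of all tested genes and by 1 of the 9 enzymes. That was SQLE, lower in all si2 libraries than in any si1 library, with a log2 difference of −0.40 (95% interval −0.79 to −0.02, unadjusted p = 0.0403, limma adjusted p = 0.175). All si2 below all si1 libraries held for 1 of 9 enzymes, SQLE, and for 11.6% of all tested genes. The interval of the difference was −0.71 to 0.14 for MSMO1, −1.13 to 0.23 for DHCR7 and −0.39 to 0.68 for LSS. A difference between the siRNAs was not shown for these 3, and the intervals give the sizes it could still have. The median log2 difference over the 9 enzymes was −0.26, beside 0.03 over all genes.

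The calls in si1 depended on single libraries. With 3 si1 libraries, 0 of the 8 tested enzymes passed the adjusted threshold when si1 1, si1 2, si1 3, siSCR 2, siSCR 3 or siSCR 4 was left out, with 4 at an unadjusted limma p under 0.05 each time. Over all 10399 to 10757 tested genes, 0 to 4 were called in those 6 fits, and 1693 to 2376 had an unadjusted limma p under 0.05. In si1, 3 enzymes passed without siSCR 1, where the calls over all genes numbered 1399, against 181 with all libraries. The log2 differences stayed at 1.60 to 2.11 for SQLE, 1.69 to 2.03 for MSMO1 and 1.55 to 1.82 for DHCR7 through these fits. Same-numbered si1 and siSCR libraries deviated together (r = 0.466, 0.131 and 0.215 over 8676 genes). However, si1 2 had a higher r with siSCR 3, at 0.183, so the numbers are not shown to mark pairs. In a fit with the number as a block, siSCR 4 has no si1 library of its number and did not add to the difference. With the replicate number as a block, SQLE stood at 1.76, MSMO1 at 1.79 and DHCR7 at 1.55, each at a limma adjusted p of 0.154, and 0 of 10517 genes were called, AKR1A1 included, with 2056 genes and 5 of the 8 enzymes at an unadjusted p under 0.05. In si2, 1 to 4 of the enzymes passed as single libraries were left out, in fits that called 88 to 1496 genes in all; the 4 passed in the fit with 1496, without siSCR 1. SQLE passed in 1 of these 8 fits, the one without siSCR 1, with a limma adjusted p of up to 0.0929 in the others; DHCR7 passed in 2, those without siSCR 1 and si2 2, with a limma adjusted p of up to 0.136. In the authors' deposited table, the log2 fold changes of SQLE, MSMO1 and DHCR7 were 1.55, 1.63 and 1.56 in si1 and 1.12, 1.31 and 1.06 in si2, and that of LSS was 0.90 (adjusted p = 0.107) in si1 and 0.97 (adjusted p = 0.0103) in si2.

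**Figure D4:**
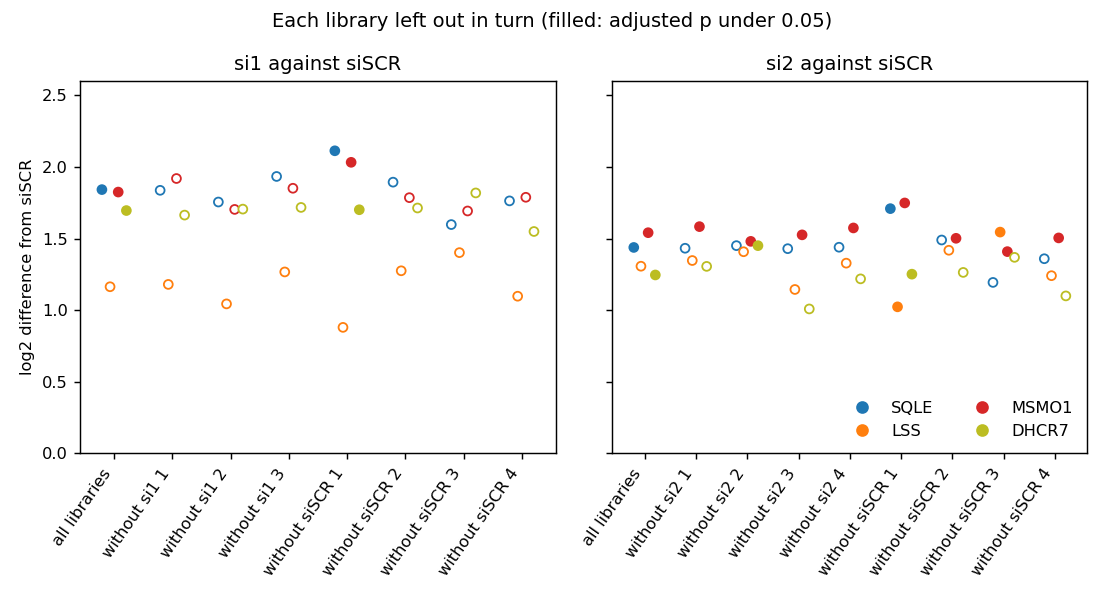
Log2 difference from siSCR of SQLE, LSS, MSMO1 and DHCR7 with all libraries and with each library left out in turn, for si1 and si2. Filled points passed a limma adjusted p of 0.05: in si1 the 3 calls were kept only without siSCR 1, in si2 MSMO1 was called throughout, and all values stay between 0.88 and 2.11.

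Other genes of sterol metabolism give the setting of these enzymes. Among 9 enzymes from acetyl-CoA to squalene, 1 rose in si1 and 4 in si2, and 0 fell. Of all tested genes, 0.789% were called higher in si1 and 1.93% in si2. The median log2 difference of the 9 was 0.38 in si1 and 0.63 in si2, beside −0.03 and −0.01 over all genes. HMGCS1, which makes HMG-CoA, had 283, 236 and 280 in si1 and 290, 249, 378 and 310 in si2, against 85.6, 98.3, 128 and 82.5 in siSCR, without overlap. It rose by 1.44 in si1 (SE 0.21, limma adjusted p = 0.0318) and by 1.63 in si2 (SE 0.20, limma adjusted p = 0.00466). The other 3 called in si2 were IDI1, which isomerises isopentenyl diphosphate (1.26, limma adjusted p = 0.00298), MVK, mevalonate kinase (1.08, limma adjusted p = 0.0334), and FDFT1, squalene synthase and so the enzyme just before SQLE (0.82, limma adjusted p = 0.0272). Their si1 differences were 0.84 for IDI1 (limma adjusted p = 0.155), 0.51 for MVK (limma adjusted p = 0.659) and 0.82 for FDFT1 (limma adjusted p = 0.0628). Without each single library other than siSCR 1, 0 of these 9 passed in si1 and 2 or 3 in si2, IDI1 and HMGCS1 each time. Those fits called 0 to 4 of all genes in si1 and 88 to 160 in si2. With the replicate block, 0 of the 9 passed in si1 and 2 in si2, where 0 and 175 of all genes were called.

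Of 13 SREBP regulators and uptake genes, 12 were tested, of which 2 rose in si1 and 4 in si2, and 0 fell. Beside them, 0.789% of all tested genes were called higher in si1 and 1.93% in si2. The median log2 difference of the 12 was 0.50 in si1 and 0.30 in si2, against −0.03 and −0.01 over all genes. INSIG1, which holds SREBP in the endoplasmic reticulum when sterol is present and is itself a target of SREBP, had 249, 337 and 286 in si1 and 239, 270, 359 and 287 in si2, against 72.2, 92.9, 111 and 82.5 in siSCR. It rose by 1.69 in si1 (SE 0.21, limma adjusted p = 0.0318) and by 1.68 in si2 (SE 0.19, limma adjusted p = 0.00363). NPC2, which carries cholesterol out of the lysosome, rose by 1.16 in si1 (limma adjusted p = 0.0325) and by 0.97 in si2 (limma adjusted p = 0.0167). SREBF2, the gene of the SREBP factor that acts mainly on sterol genes, rose by 0.99 in si2 (limma adjusted p = 0.0396) and STARD4, a sterol carrier, by 1.42 (limma adjusted p = 0.0304). Their si1 differences were 1.34 for SREBF2 (limma adjusted p = 0.0511) and 0.17 for STARD4 (limma adjusted p = 0.816), neither past the threshold. STARD4 was low, at 19.7 ± 2.59 normalized counts in si2 (SD, n = 4) against 7.33 ± 4.17 in siSCR (SD, n = 4). Without single libraries other than siSCR 1, 0 of these genes passed in si1 and 1 or 2 in si2, INSIG1 each time, in fits that called 0 to 4 and 88 to 160 genes in all. With the replicate block, 0 of these genes passed in si1 and 2 in si2, where 0 and 175 of all genes were called.

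Of 5 late sterol genes outside the 9 enzymes, 4 were tested and 0 called by limma with either siRNA (1 at an unadjusted p under 0.05 in si1 and 0 in si2), with a median log2 difference of 0.43 in si1 and −0.02 in si2. Over all tested genes, 2516 of 10517 in si1 and 2008 of 10249 in si2 had an unadjusted limma p under 0.05. LBR, the lamin B receptor with sterol C14-reductase activity, differed by 0.08 in si1 (limma adjusted p = 0.920) and −0.41 in si2 (limma adjusted p = 0.481). Without siSCR 1 LBR was called lower in si2, in a fit that called 693 of 10381 genes lower. EBPL, named for its likeness to EBP, differed by 0.35 in si1 (limma adjusted p = 0.363) and −0.09 in si2 (limma adjusted p = 0.802). Of 9 genes of sterol efflux and esterification, 7 were tested and 0 called by limma (6 at an unadjusted p under 0.05 in si1 and 4 in si2), with medians of 0.61 in si1 and 0.59 in si2. Of the 6 in si1, 5 were higher and 1 lower. The lower one was NR1H3, which encodes the sterol-sensing nuclear receptor LXR alpha, at 7.03, 0 and 4.51 in si1 against 11.8 to 25.5 in siSCR. These si1 values stand for 8, 0 and 3 reads. In si1, 1146 of all 10517 tested genes lay below siSCR without overlap, NR1H3 among them. Every si1 library was below every siSCR library, with a log2 difference of −2.28 (unadjusted p = 0.00975, limma adjusted p = 0.109), and NR1H3 was called lower when all 11 libraries entered one fit. ABCA1, which exports cholesterol, differed by 1.21 in si1 (limma adjusted p = 0.0609) and 0.63 in si2 (limma adjusted p = 0.158), and SOAT1, which esterifies it, by 0.61 in si1 (limma adjusted p = 0.165) and 0.36 in si2 (limma adjusted p = 0.282). Without siSCR 1, 1 efflux or esterification gene was called higher in si1, ABCA1, and 4 in si2, MYLIP, LIPA, NCEH1 and ABCA1. Over all genes, those fits called 725 of 10340 higher in si1 and 803 of 10381 higher in si2.

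**Figure D5:**
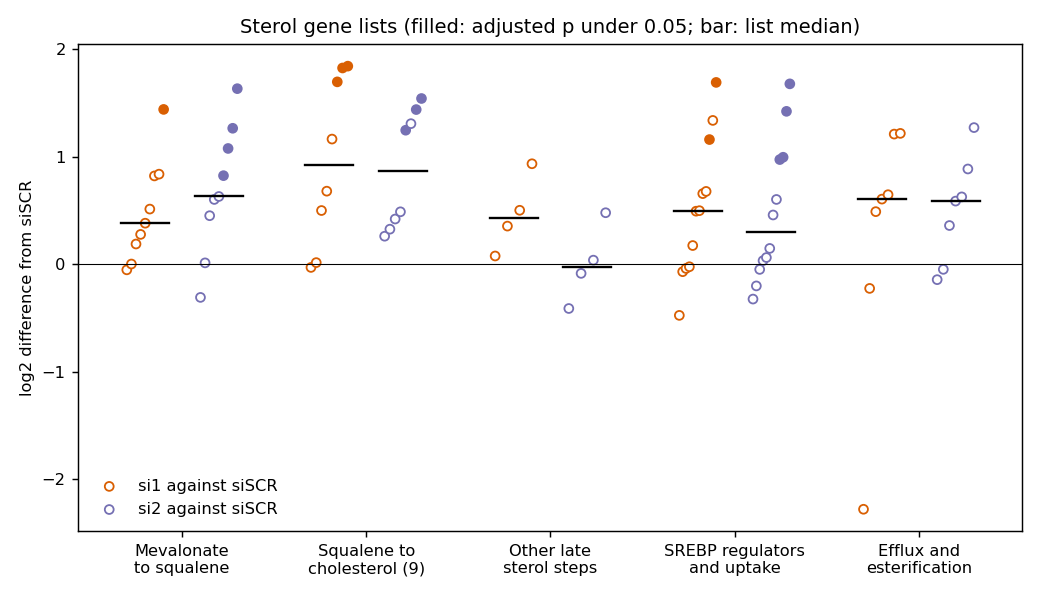
Log2 difference from siSCR of the tested genes of 5 sterol lists, for si1 and si2; each point is a gene, bars are list medians and filled points passed a limma adjusted p of 0.05. Filled points occur in 3 lists, from mevalonate to squalene, from squalene to cholesterol and among SREBP regulators and uptake genes, and all of them lie above 0.

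The mean centred log2 level of the 9 enzymes was set beside every other gene with a mean normalized count of at least 100, 4934 genes in all, by Pearson's r over the 11 libraries. The 8 genes most like it were PTTG1IP (r = 0.97), DSEL (0.96), INSIG1 (0.94), RBFOX2 (0.94), SDPR (0.93), BLVRB (0.93), PLS1 (0.93) and SPATS2L (0.93). Most of this likeness lay between the groups: with the group means taken off, r was 0.71 for PTTG1IP, 0.75 for DSEL, 0.15 for INSIG1 and −0.02 for RBFOX2. The libraries share their scaling and fall into 3 groups, so r is a description. INSIG1 is the 1 gene of the 8 that belongs to the sterol lists.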

How the data were processed

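RNA sequencing of 769-P cells gave 11 libraries. Per the submitters' processing notes, reads were handled with cutadapt, FastQC, STAR and HTSeq on GRCh38, and normalized with DESeq2; per the labels' protocols the scaling was relative log expression. Versions and strandedness are not given in the sources used here. In 2 tables, the authors deposited a log2 value per gene and library, the log2 of the normalized count plus 1, tested on the values: with this undone, 100% of values lay within 0.01 read of a whole read count. Reads per library are sums of these recovered reads. Between the tables, siSCR columns differed by at most 0. Further columns hold, per the file headers, a mean normalized signal, the authors' p-value with its adjusted form, and their log2 fold change; a sentence that prints one names the authors' deposited table. The number of sample columns left unused was 0.

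The log2(normalized count + 1) values were fitted with limma 3.58.1 (R 4.3.3) on the 2 groups compared, over all genes whose normalized count reached 10 in enough libraries to fill the smaller group, with group as the only term and no mean trend. A gene was called at a two-sided Benjamini-Hochberg adjusted p under 0.05 over all tested genes, and "passed" or "rose" means that. The script was tested on simulated data. Exact permutation tests used the mean log2 level, doubling the smaller tail. Intervals are at 95%. GENCODE 29 (GRCh38) gave gene positions and exon overlaps, by Ensembl identifier, and RefSeq (GRCh38.p14) the promoter sequences.

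The 9 enzymes, the other lists and the tests were chosen with earlier results of these data known. Named genes were AKR1A1, the 9 enzymes, every called gene of 4 other sterol lists, or the 2 of highest level where none was called, and the 8 genes most like the enzymes' mean; NR1H3, MYLIP, LIPA and NCEH1 were named after their values were seen, as was SCARB1. Some genes of these lists are not reported here and were left out of the lists' counts and medians. Same-numbered si1 and siSCR libraries deviated together (r = 0.466, 0.131 and 0.215 over 8676 genes), so their numbers could mark pairs. The main fits did not use the numbers, which entered only in the replicate block, an alternative. Such a pairing would come from the data, not from the labels, and is uncertain, since si1 2 had r = 0.183 with siSCR 3 and 0.131 with siSCR 2. For same-numbered si2 and siSCR libraries the r values ran from −0.05 to 0.24. Their numbers were not taken as pairs, and the block was run there too. Alternatives were upper-quartile rescaling, no minimum, a minimum of 50, pseudocounts of 0.5 and 5, limma-trend, voom on the recovered reads, all 11 libraries in one fit, the replicate block, the share of mitochondrial reads as a covariate, and each library left out.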

Additional observations from a re-analysis of the deposited data

Results flagged for a closer look

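In groups of 4 libraries, 46 sets of values were checked for a library set apart from the other 3 (Dixon's ratio above its 95% critical value), and 6 were, 5 of them in siSCR 1; chance gives about 1 in 20. For the enzymes, EBP was 126 normalized counts in siSCR 1, while the rest of siSCR had 202 to 213, and CYP51A1 was 2.10 in si2 3, against 8.83 to 10.6 in the other si2 libraries, a value that stands for 2 reads. SREBF2 was 178 in siSCR 1, while the rest of siSCR had 94.7 to 102. The mitochondrial share of reads was 12.1% in siSCR 1, against 3.46 to 4.46%, its S phase score was −0.46, against 0.75 to 0.77, and its mitosis score was −0.78, against 1.02 to 1.08.

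Of the 32 tested genes of the other sterol lists, 2 were called in si2 against si1, where 6.74% of all tested genes were. SCARB1, a lipoprotein receptor, was lower in si2, at 60.2 ± 10.1 in si2 (SD, n = 4) against 109 ± 8.88 in si1 (SD, n = 3), a log2 difference of −0.86 (limma adjusted p = 0.0373). NCEH1, which hydrolyses cholesterol esters, was higher in si2, at 290 ± 27.9 in si2 (SD, n = 4) against 166 ± 31.7 in si1 (SD, n = 3), a log2 difference of 0.81 (limma adjusted p = 0.0484). As each of the 7 libraries was left out in turn, SCARB1 was called in 1 of the 7 fits, the one without si2 3, and NCEH1 in 1, the one without si1 2. Both calls were lost with the replicate block, with no minimum on counts and once the mitochondrial share entered as a covariate, and each was kept in 6 of 11 other settings in all.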

How the results depend on the processing

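No call of an enzyme changed direction under any setting tried. With all libraries, 3 enzymes were called in si1, 3 in si2 and 0 in si2 against si1. Without any minimum on counts, 0 were called in si1 and 1 in si2, and with the replicate block 0 in si1 and 1 in si2 (MSMO1, limma adjusted p = 0.0369). In si1, a pseudocount of 0.5 called 2, and all 11 libraries in one fit called 4, SQLE, LSS, MSMO1 and DHCR7. In si2, those 4 were called with a pseudocount of 5, limma-trend, voom, all 11 libraries in one fit and the mitochondrial covariate. These si2 fits called 273 to 1343 genes in all. Leaving out single libraries gave 0 to 3 in si1 and 1 to 4 in si2. Over all genes, the calls in si1 (181) became 115 with an upper quartile over genes with a read, 5 with no minimum, 567 with a minimum of 50, 414 with a pseudocount of 5, 712 with limma-trend, 582 with voom, 1141 when all 11 libraries entered one fit, 0 with the block, and 0 to 1399 without single libraries. In si2 (320) they became 108 with no minimum, 482 with limma-trend, 175 with the block, 1343 with a covariate for mitochondrial share, and 88 to 1496 without single libraries. In si2 against si1 (704) they became 230 with no minimum, 1064 with limma-trend, 1172 with voom, 6 with the block, 167 with the covariate and 120 to 803 without single libraries. The cause of these changes was not tested.

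The upper quartile was first taken over genes with a read in each library, and then over genes passing the minimum, a change made after the data were seen. The first form moved the median of all genes to −0.11 in si1 and to 0.16 in si2 against si1. Relative to siSCR it called 2 enzymes in si1 (MSMO1 and DHCR7) and 4 in si2 (SQLE, LSS, MSMO1 and DHCR7), and in si2 against si1 it split the calls into 431 higher and 158 lower, beside 388 and 316. The second form called 179, 316 and 715 genes and 3, 3 and 0 enzymes. CYP51A1, at 1 to 20 reads a library, was not tested against siSCR.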
